A study of Gallus gallus with 8 samples.

Results

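Messenger RNAs of the mitochondrial respiratory chain and the ATP synthase were measured in the retina of chicks on GeneChip Chicken arrays, 1 array per chick. Both retinas of a chick were pooled. 4 White Leghorn chicks wore plus lenses of 6.9 D over both eyes for 24 h (plus lens), and 4 went without lenses (control). All were labelled male and 9 days old. Velcro rings for the lenses had been glued around the eyes on the preceding day, with ether as anaesthetic. A plus lens places the image in front of the retina, and the study asked which retinal transcripts differ while the eye responds to it. A probe set belonged to the respiratory chain here when the array's annotation gave it a single gene symbol of a subunit of complexes I to V or of cytochrome c (symbols that begin with NDUFA, NDUFB, NDUFC, NDUFS, NDUFV, UQCR, SDH or ATP5, the COX subunits, and CYCS). Assembly factors were left out. This rule found 120 probe sets for 67 of the 13009 genes with a single symbol on the array. Complex I had 34 genes, complex II 2, complex III 8, complex IV 8, the ATP synthase (complex V) 14 and cytochrome c 1. 36 genes had 1 probe set and 31 had up to 5, and where 1 value stands for a gene it comes from its brightest probe set over all 8 arrays. The subunits CYC1, SDHB and SDHC and the subunits encoded in mitochondrial DNA were not analysed here.

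The respiratory chain lies in the inner mitochondrial membrane. Complex I takes electrons from NADH and complex II from succinate, ubiquinone hands them to complex III, cytochrome c carries them to complex IV, and complex IV passes them to oxygen. Complexes I, III and IV pump protons, and the ATP synthase uses the return of these protons to make ATP. Photoreceptors, whose inner segments are packed with mitochondria, make the retina a tissue of very high oxygen use. Nearly all subunits come from nuclear genes scattered over the chromosomes, so that a few lie on the Z sex chromosome. Male birds carry a pair of Z chromosomes and females a Z and a W, and Z-linked genes of birds are only partly compensated for this dose.

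One feature of the arrays bears on the Z-linked subunits and stands before the results. The mean log2 intensity of 12 W-linked probe sets was 8.57, 8.54, 8.27 and 8.62 in the plus lens arrays, 8.59 and 8.26 in control replicates 1 and 3, and 3.72 and 3.07 in control replicates 2 and 4. W-linked signal was thus present in 6 of the 8 arrays that the labels call male, and the 2 arrays without it were both controls. Differences were therefore computed over all 8 arrays and again over the 6 arrays with W-linked signal. Plus lens arrays were all washed on fluidics station 2 and scanned before the controls, which were all washed on station 1, so station, scan order and treatment cannot be told apart. RNA integrity numbers lay between 9.2 and 9.5, the median intensity of an array between 10.75 and 10.99, and 53.4% to 53.8% of all probe sets lay below an intensity of 16, which was taken as the limit of low signal. Of the 120 probe sets of the respiratory chain, 96 exceeded 16 in at least 4 arrays and 21 stayed below it in all 8. The 3 genes NDUFS5, COX7B and ATP5G2 had no probe set above 16.

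No subunit passed the test between plus lens and control. The threshold was a false discovery rate of 0.06 (limma with Benjamini-Hochberg adjustment over 38439 probe sets) together with a change of 1.5-fold or more. It was met by 0 of the 120 probe sets and by 0% of all probe sets. The smallest adjusted p of a subunit was 0.810, against 0.0990 over all probe sets. At an unadjusted p under 0.05, 9 of the 120 probe sets (7.50%) were lower in plus lens retinas and 2 (1.67%) higher, while among all probe sets 2.03% were lower and 2.49% higher. Of the 96 probe sets above 16, the same 9 (9.38%) were lower and the same 2 higher, while 3.90% of all probe sets above 16 were lower and 4.87% higher. Groups that did not overlap were found for 2 probe sets that were lower (NDUFS7 and NDUFV2) and 1 that was higher (a dim probe set of COX5A), and for 1.10% and 1.77% of all probe sets. In the 6 arrays with W-linked signal, 11 of the 120 (9.17%; 6 lower, 5 higher) had an unadjusted p under 0.05, as did 3.54% of all probe sets. The same 11 were among the 96 above 16, while 1136 of all 17827 probe sets above 16 had such a p. The smallest adjusted p of a subunit over these 6 arrays was 0.660.

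The differences were small, and at the brightest probe set of each gene most of them pointed the same way. With 1 probe set per gene, 47 of 67 genes (70.1%) had a lower mean in plus lens than in control retinas, against 47.1% of all 13009 genes, and 46 of 64 genes above 16 did so (71.9%), against 48.5% of all genes above 16. Without the Z-linked genes the count was 43 of 63 (68.3%), and over the 6 arrays with W-linked signal it was 43 of 67 (64.2%, against 41.6% of all genes). Of the 64 genes above 16, 42 (65.6%) were lower over these 6 arrays, against 50.0% of all genes above 16. Counted over all 96 probe sets above 16 the share was smaller, with 58 lower (60.4%, against 46.5% of all probe sets above 16). Over the 6 arrays 53 of these 96 probe sets were lower (55.2%, against 47.8%). Subunits of a complex share chicks and arrays, so these counts are not counts of independent events. The 64 genes were also brighter, with array means of 10.61 to 10.78 on the log2 scale, against 8.17 to 8.20 for all genes above 16. Direction was not compared at matched signal. The median log2 difference, plus lens minus control, was −0.05 over the 67 genes and 0.00 over all genes. The difference is a log2 ratio, so that −1 means an intensity lower by 1 doubling. By complex the median was −0.06 in complex I, −0.06 in complex II, −0.02 in complex III, −0.08 in complex IV and −0.01 in the ATP synthase. In complex I 24 of 34 genes were lower, in complex III 6 of 8, in complex IV 7 of 8, in complex II both, and in the ATP synthase 7 of 14. Those of complex IV included the Z-linked COX7C and COX7B, which lay below 16 in all arrays (−0.03, and −0.004 over the 6 arrays). Over the 6 arrays with W-linked signal, 22 of 34 were lower in complex I and 7 of 8 in complex IV. Both genes of complex II were lower there, and 8 of 14 in the ATP synthase. Complex III then had 4 of 8 lower, with a median of −0.002. For 56 of the 67 genes the 95% confidence interval of the difference lay within 1.5-fold in either direction, as it did for 10733 of all 13009 genes. Above 16 this held for 54 of 64 genes, and for 6665 of all 8534 genes.

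**Figure D1:**
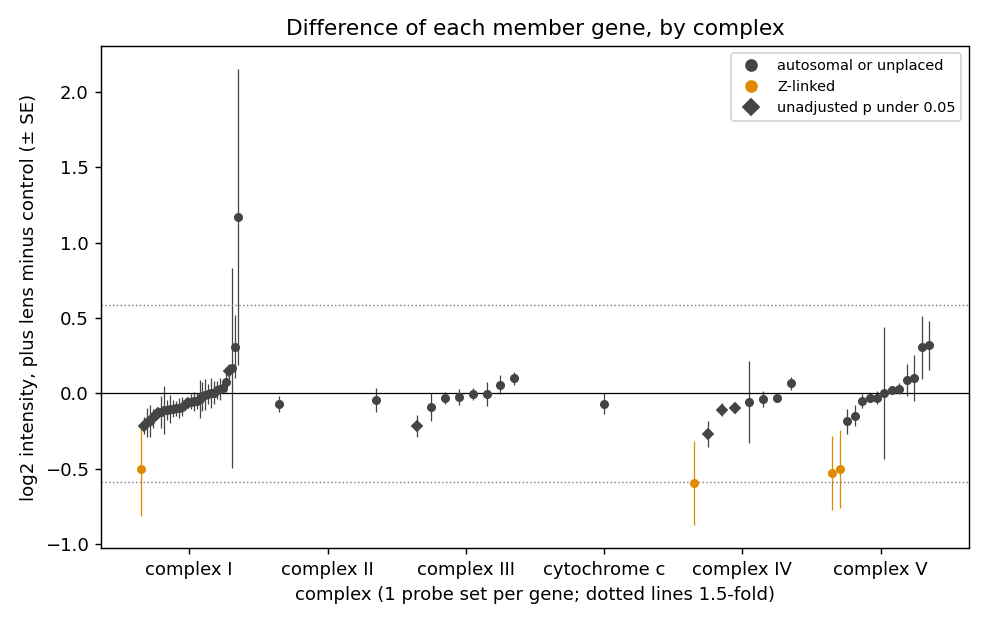
Log2 difference, plus lens minus control (± SE, n = 4 and 4), of each of the 67 genes at its brightest probe set, ordered by size within each complex. Most points lie just below 0, the 4 Z-linked genes (orange) lie between −0.60 and −0.50, and diamonds mark genes with an unadjusted p under 0.05 from limma.

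The subunits with the smallest p were core subunits of complex I, in the arm that reaches into the matrix and takes up electrons. NDUFS7 holds the iron-sulfur cluster next to the ubiquinone site. Its log2 intensity was 8.89, 8.88, 8.92 and 8.86 in plus lens retinas and 9.01, 9.04, 8.97 and 9.08 in controls. All 4 plus lens values lay below all 4 control values. The difference was −0.14 (SE 0.03; unadjusted p = 0.00128 and adjusted p = 0.810 from limma), and the exact two-sided permutation p was 0.0286, the smallest that 70 relabelings can give. NDUFV2, an iron-sulfur subunit of the NADH end, had log2 intensities of 9.97, 10.03, 9.99 and 10.04 in plus lens and 10.08, 10.11, 10.15 and 10.21 in control retinas. These groups did not overlap either, and the difference was −0.13 (SE 0.03; adjusted p = 0.948 from limma). NDUFV1 carries the flavin that receives the electrons of NADH. It had 9.54, 9.61, 9.69 and 9.60 in plus lens and 9.69, 9.82, 9.91 and 9.88 in control retinas, a difference of −0.21 (SE 0.05; adjusted p = 0.964 from limma). Its groups touched only at plus lens replicate 3 and control replicate 1. In the 6 arrays with W-linked signal the differences were −0.10 for NDUFS7, −0.11 for NDUFV2 and −0.19 for NDUFV1, and the unadjusted p from limma was 0.00623, 0.0183 and 0.0574.

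NDUFS8, which holds further iron-sulfur clusters on the path to ubiquinone, differed by −0.11 (SE 0.07; adjusted p = 0.979 from limma) with overlapping groups, and by −0.04 over the 6 arrays. The largest core subunit, NDUFS1, and the core subunit NDUFS3 varied within the groups more than between them. NDUFS1 had log2 intensities of 11.27, 9.42, 11.43 and 11.32 in plus lens and 10.30, 10.79, 10.71 and 6.96 in control retinas at its brightest probe set. Plus lens replicate 2 and control replicate 4 stood well below the other arrays of their groups, and the difference of 1.17 (SE 0.98; adjusted p = 0.979 from limma) was 0.26 without control replicate 4. At the next brightest probe set of NDUFS1 all 8 arrays lay between 9.96 and 10.37, and the difference was 0.09 (SE 0.09). Control replicate 4 was not low there, while plus lens replicate 2 was the lowest of the 8 arrays by a small margin (9.96). The dimmest probe set of NDUFS1 differed by −0.25 (SE 0.15), with the opposite sign. NDUFS3 had 8.44, 6.47, 6.75 and 6.51 in plus lens and 6.53, 6.14, 6.41 and 8.40 in control retinas. In each group 1 array stood above the others, and the difference was 0.17 (SE 0.66; adjusted p = 0.996 from limma).

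**Figure D2:**
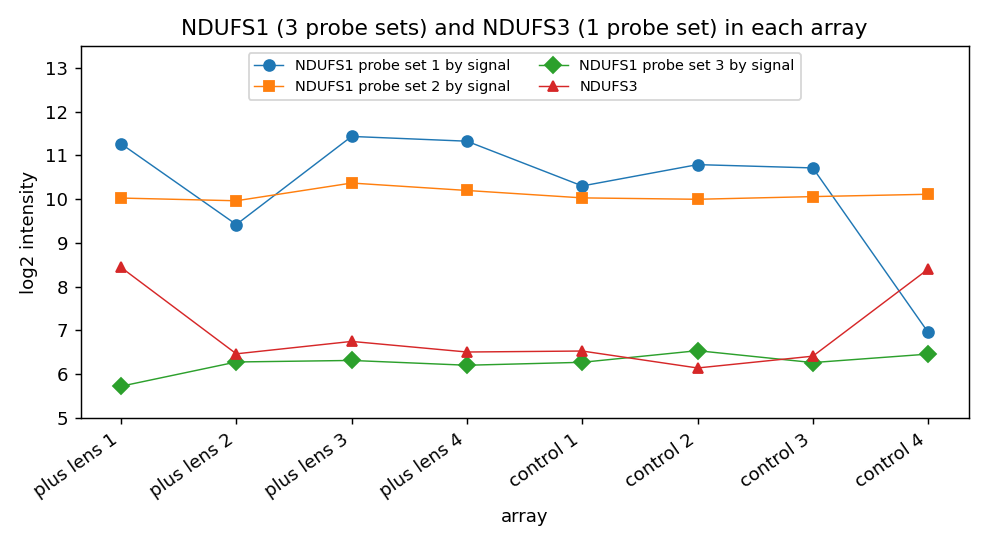
Log2 intensity of the 3 probe sets of NDUFS1 and the probe set of NDUFS3 in each array, with lines that only join the points of 1 probe set. The brightest probe set of NDUFS1 drops to 9.42 in plus lens replicate 2 and 6.96 in control replicate 4 while the next brightest stays between 9.96 and 10.37, and NDUFS3 stands at 8.44 in plus lens replicate 1 and 8.40 in control replicate 4.

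The accessory subunits of complex I surround the core and are needed to assemble and hold it. NDUFA9, which lies close to the ubiquinone site, was 10.94, 10.94, 11.02 and 10.98 in plus lens retinas, and 3 of the 4 controls lay above these, between 11.03 and 11.08 (−0.07, SE 0.02). NDUFB9, in the membrane arm, was 10.71, 10.65, 10.75 and 10.57 against 10.93, 10.69, 10.88 and 10.85 (−0.17, SE 0.06). NDUFA10, also a membrane arm subunit, went the other way with 11.19, 11.14, 11.25 and 11.10 against 11.02, 11.02, 10.92 and 11.13 (0.15, SE 0.05). All 3 had an unadjusted p under 0.05 and an adjusted p of 0.979 from limma, and in each the groups overlapped. Over the 6 arrays NDUFB9 differed by −0.23 and NDUFA10 by 0.20, which was at least as large as with control replicates 2 and 4, while NDUFA9 differed by −0.06, with an unadjusted p of 0.0743 from limma. NDUFB5, a membrane arm subunit, had the smallest spread within groups of the probe sets with a mean log2 intensity of at least 8 (SD 0.02), with a difference of 0.04 (SE 0.02). The other accessory subunits above 16, NDUFS4 aside, differed by between −0.19 (NDUFB7, SE 0.09) and 0.08 (NDUFS6, SE 0.07) at their brightest probe sets. NDUFA4 is now counted to complex IV and differed by −0.10 (SE 0.05), and NDUFAB1, the mitochondrial acyl carrier protein, by 0.02 (SE 0.06).

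**Figure D3:**
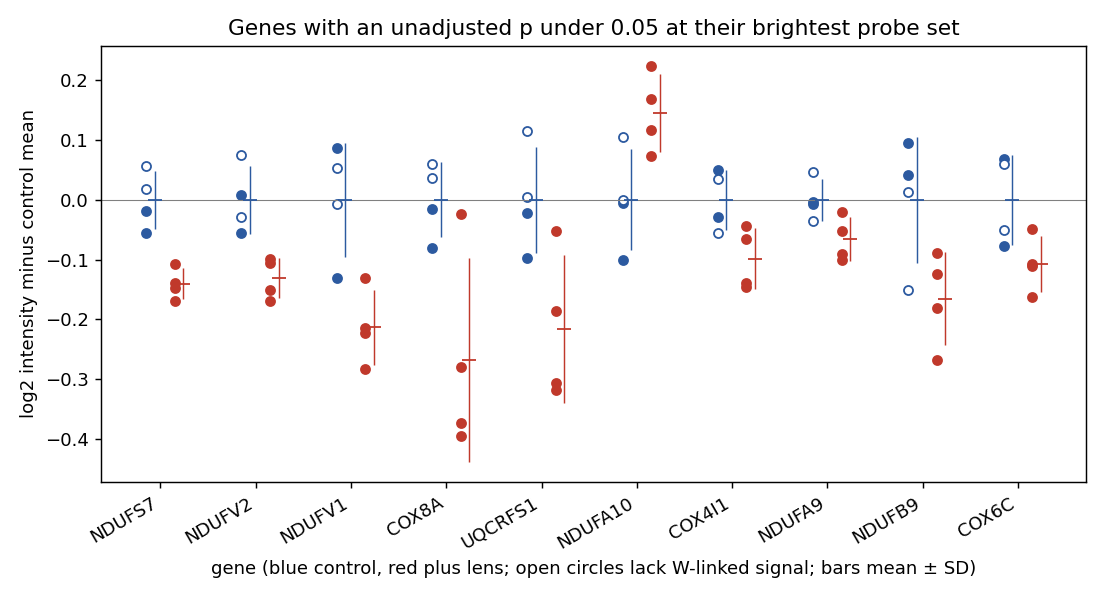
Log2 intensity of each array minus the control mean of the same probe set, for the 10 genes with an unadjusted p under 0.05 from limma at their brightest probe set, with the mean ± SD of each group (n = 4). The plus lens points of NDUFS7 and NDUFV2 lie below all control points, and open circles mark control replicates 2 and 4, which lack W-linked signal.

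Complex II and cytochrome c showed no difference at this precision. SDHA, the flavoprotein that oxidizes succinate, was 11.35 ± 0.12 (SD, n = 4) in plus lens and 11.40 ± 0.12 in control retinas, a difference of −0.04 (95% confidence interval −0.23 to 0.14). SDHD, a membrane anchor of complex II, differed by −0.07 (−0.20 to 0.06), and CYCS, the cytochrome c of somatic cells, by −0.07 (−0.24 to 0.10). All 3 intervals lay within 1.5-fold in either direction.

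In complex III the Rieske iron-sulfur protein UQCRFS1, which passes electrons on towards cytochrome c, differed most. Its log2 intensity was 9.99, 10.26, 10.13 and 10.01 in plus lens and 10.21, 10.32, 10.29 and 10.43 in control retinas. Only plus lens replicate 2 reached into the control range. The difference was −0.22 (SE 0.07; unadjusted p = 0.0216 and adjusted p = 0.979 from limma). Over the 6 arrays it was −0.16, with an unadjusted p of 0.145 from limma. The core proteins UQCRC1 and UQCRC2, which face the matrix and bear no redox centre, differed by −0.02 (SE 0.06) and −0.03 (SE 0.04). The small subunit UQCR10 had the highest difference of the complex, 0.10 (SE 0.04; exact permutation p = 0.114). UQCRB differed by 0.06 (SE 0.06), and over the 6 arrays by 0.13, with an unadjusted p of 0.00339 from limma.

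In complex IV, 3 genes for nuclear-encoded subunits that surround the catalytic core had an unadjusted p under 0.05, all lower in plus lens retinas. COX4I1, a regulatory subunit of the enzyme, was 13.31, 13.40, 13.30 and 13.38 against 13.49, 13.39, 13.42 and 13.48. The ranges crossed only at plus lens replicate 2 and control replicate 2, and the difference was −0.10 (SE 0.03). COX8A, a small membrane subunit, was 9.44, 9.55, 9.81 and 9.46 against 9.82, 9.87, 9.75 and 9.89 (−0.27, SE 0.09). Here plus lens replicate 3 lay among the controls and the other plus lens arrays lay below them. COX6C, another small membrane subunit, was 12.06, 12.00, 12.00 and 11.95 against 12.18, 12.06, 12.03 and 12.17 (−0.11, SE 0.04), with overlapping groups. The adjusted p of all 3 was 0.979 from limma. Over the 6 arrays the differences were −0.11, −0.22 and −0.10, with an unadjusted p of 0.0535, 0.131 and 0.112 from limma. COX5A, a matrix subunit, had 7.44, 7.44, 7.50 and 8.41 against 7.93, 7.37, 8.10 and 7.63 (−0.06, SE 0.27), and the sign of its difference depended on the array left out. COX7A2L, which binds complexes III and IV to each other and is no subunit of complex IV, was the single gene of the group with a higher mean in plus lens retinas (0.07, SE 0.04).

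The autosomal genes of the ATP synthase lay on both sides of 0, with 5 of 12 lower. ATP5B, the catalytic beta subunit, was 11.35, 11.52, 11.53 and 11.41 in plus lens and 11.47, 11.56, 11.63 and 11.75 in control retinas, with overlapping groups and a difference of −0.15 (SE 0.07; adjusted p = 0.979 from limma), or −0.10 over the 6 arrays with W-linked signal. ATP5C1, the gamma subunit that forms the rotating shaft, was nearly the same in every array, with values from 11.52 to 11.60 and a difference of 0.02 (SE 0.02). Over the 6 arrays ATP5C1 differed by 0.05, with an unadjusted p of 0.0172 from limma. ATP5G1 encodes the proton-carrying subunit c. Its plus lens values lay between 11.79 and 11.82 and its control values between 11.76 and 12.16 (−0.19, SE 0.08; exact permutation p = 0.143), and over the 6 arrays the difference was −0.11. ATP5G3, a further gene for subunit c, differed by −0.05 (SE 0.05). ATP5J, coupling factor 6 of the stalk, was higher by 0.32 (SE 0.16; exact permutation p = 0.143), with plus lens replicates 1 and 3 above all other arrays, and by 0.31 over the 6 arrays. ATP5S, which shares the prefix but encodes a coupling factor outside the complex proper, differed by 0.30 (SE 0.21). Over the 6 arrays ATP5S differed by 0.43 (SE 0.08), with an unadjusted p of 0.00455 from limma.

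Apart from NDUFS1, no gene differed by more than the 4 Z-linked genes NDUFS4, COX7C, ATP5F1AZ and ATP5I, and their values followed W-linked signal. NDUFS4 is an accessory subunit of complex I that is needed for a stable NADH end, and its loss in humans causes Leigh syndrome. It had log2 intensities of 9.25, 9.43, 9.41 and 9.20 in plus lens retinas and 9.35, 10.38, 9.19 and 10.38 in controls. Control replicates 2 and 4, which lacked W-linked signal, stood above the 6 other arrays, and the 2 controls with W-linked signal lay within the plus lens range or next to it. COX7C, a small subunit of complex IV, had 11.42, 11.32, 11.23 and 11.33 against 11.53, 12.33, 11.32 and 12.51. ATP5F1AZ (formerly ATP5A1), the alpha subunit of the ATP synthase head, had 11.40, 11.39, 11.64 and 11.38 against 11.45, 12.39, 11.65 and 12.42. ATP5I, subunit e, which takes part in pairing ATP synthases in the membrane, had 12.51, 12.38, 12.27 and 12.39 against 12.55, 13.20, 12.32 and 13.47. In all 4 genes the 2 arrays without W-linked signal lay above the 6 arrays with it, with gaps of 0.65 to 0.95 on the log2 scale. These 2 arrays were also the highest for the autosomal genes COX8A, NDUFS7, UQCRFS1, NDUFB6 and NDUFB8, with gaps of 0.01 to 0.05.

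**Figure D4:**
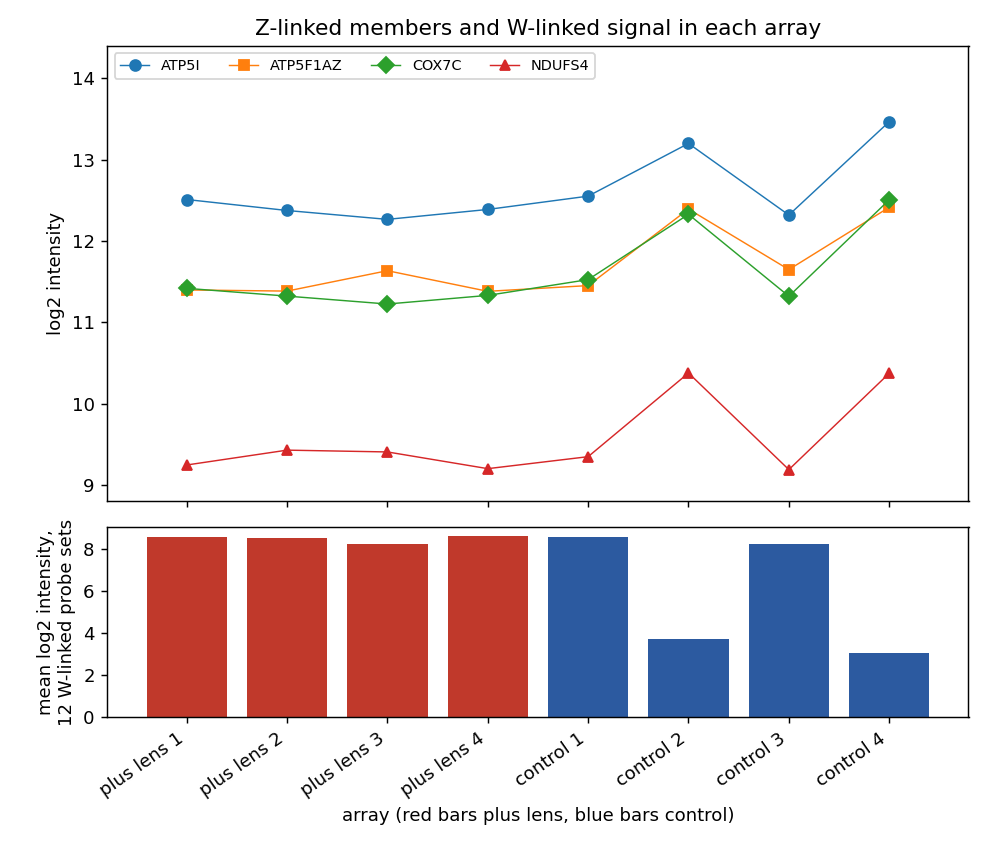
Log2 intensity of the 4 Z-linked genes at their brightest probe sets in each array (top, lines only join the points of a gene) and the mean log2 intensity of 12 W-linked probe sets (bottom). Control replicates 2 and 4, with W-linked means of 3.72 and 3.07, show the highest values of all 4 genes.

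Between the 2 arrays without and the 6 arrays with W-linked signal, the difference of the means was 1.07 for NDUFS4 (2.10-fold), 1.06 for COX7C (2.08-fold), 0.92 for ATP5F1AZ (1.89-fold) and 0.93 for ATP5I (1.91-fold). Within the control group alone it was 1.11, 0.99, 0.85 and 0.90. These values are a description without a test, since the labels give a single sex for all arrays. Among 402 Z-linked genes above 16 on the array the median of this difference was 0.50, with quartiles of 0.23 and 0.82, and 106 (26.4%) exceeded 0.8. Among 8029 autosomal genes above 16 the median was −0.02 and 0.286% exceeded 0.8. The 59 autosomal genes of the respiratory chain above 16 had a median of 0.05, and 0 of them exceeded 0.8. The autosomal partners in complexes I, IV and V (48 genes) had a median of 0.03, so the Z-linked subunits stood about 1 doubling higher in these 2 arrays while the partners of the same complexes did not. ATP5F1AZ has a counterpart on the W chromosome, for which no probe set was annotated, and whether its RNA binds to the ATP5F1AZ probe set was not tested.

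The comparison of plus lens and control retinas changed accordingly for these genes. Over all 8 arrays the log2 difference was −0.50 (SE 0.31) for NDUFS4, −0.60 (SE 0.28) for COX7C, −0.53 (SE 0.24) for ATP5F1AZ and −0.50 (SE 0.26) for ATP5I, each with an adjusted p of 0.979 from limma. Over the 6 arrays with W-linked signal it was 0.05 (SE 0.09), −0.10 (SE 0.08), −0.10 (SE 0.10) and −0.05 (SE 0.10). Without control replicates 2 and 4 each difference was thus 0.10 or less in size, with an unadjusted p of 0.277 to 0.622 from limma, and that of NDUFS4 turned its sign. Of the 402 Z-linked genes of the whole array, 84.8% were lower in plus lens retinas, with a median of −0.24 over all 8 arrays and 0.02 over the 6. NDUFS4 and COX7C each had a dim probe set as well. That of NDUFS4 lay below 16 in 7 of 8 arrays and differed by −0.30 (SE 0.25), and that of COX7C, below 16 in 4 arrays, differed by −0.17 (SE 0.38) over all arrays and by 0.37 over the 6. The plot of the differences with and without control replicates 2 and 4 sets these genes beside the others.

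**Figure D5:**
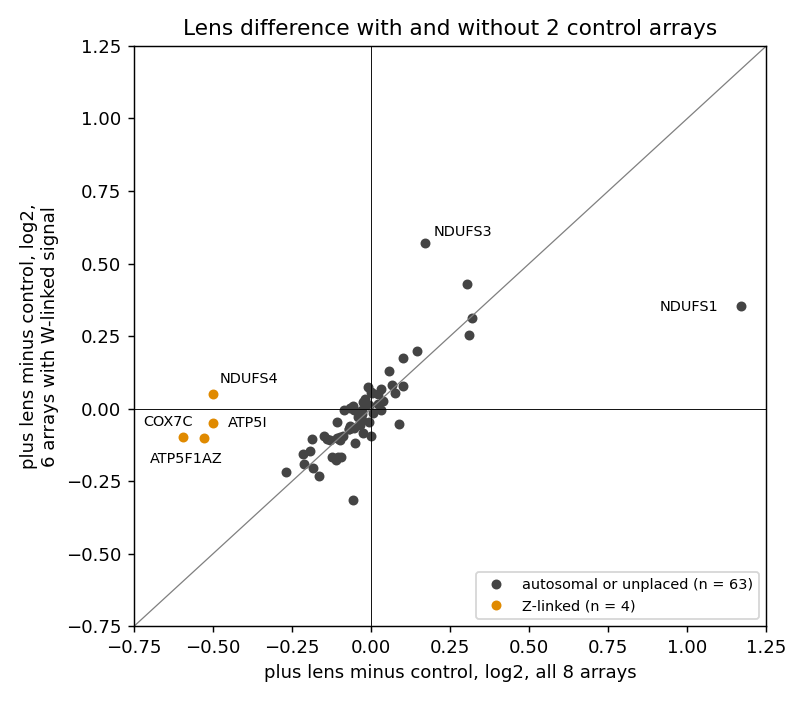
Log2 difference, plus lens minus control, of the 67 genes over all 8 arrays (x axis) and over the 6 arrays with W-linked signal (y axis), where the grey line marks equal values. Most of the 63 autosomal or unplaced genes lie near the line, whereas the 4 Z-linked genes move from between −0.60 and −0.50 to between −0.10 and 0.05.

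Probe sets of the same gene did not always give the same value. The clearest case was NDUFA7, an accessory subunit of complex I, whose brightest probe set differed by −0.05 (SE 0.06). A dimmer probe set of NDUFA7 had 6.82, 6.56, 6.94 and 6.84 in plus lens and 6.13, 6.05, 6.06 and 6.80 in control retinas. Control replicate 4 lay among the plus lens arrays there and the other controls below them, and the difference was 0.53 (SE 0.19; unadjusted p = 0.0274 and adjusted p = 0.979 from limma). For NDUFB4, a membrane arm subunit of complex I, the brightest probe set differed by −0.01 (SE 0.10) and the next by −0.38 (SE 0.16). Over the 6 arrays with W-linked signal, the dimmer probe set of NDUFA7 differed by 0.69 and the brightest by −0.003. That dimmer probe set had the smallest adjusted p of a subunit over these 6 arrays (0.660 from limma). For NDUFB4 the next brightest probe set differed by −0.61 over these arrays and the brightest by 0.07. ATP5J2, a membrane subunit of the ATP synthase, had 5 probe sets with differences from −0.31 (SE 0.22) to 0.67 (SE 0.37). The probe set of ATP5J2 at −0.31 lay below 16 in 7 arrays. By contrast, the 3 brightest probe sets of ATP5O, which encodes the stalk protein that links the head to the stator, differed by 0.03, −0.04 and −0.01, with SEs of 0.04 to 0.05. The dimmer probe sets of ATP5O differed by 0.22 (SE 0.19) and 0.16 (SE 0.11). No source used here says which probe set of a gene measures the subunit best.

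The spread of replicates in the respiratory chain was near that of all probe sets at or above the same signal limit. Of its probe sets with a mean log2 intensity of at least 8, 67 in number, the median SD within groups was 0.10, against 0.13 over all 7393 such probe sets, and 7.46% had an SD over 0.3, against 7.20%. The 5 over 0.3 were NDUFS1 and the Z-linked NDUFS4, COX7C, ATP5F1AZ and ATP5I. In the Z-linked genes, control replicates 2 and 4, which lack W-linked signal, stood apart from the other controls.

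Other genes of mitochondrial energy metabolism were taken from lists and gave 0 calls as well. With 1 probe set per gene, 3.17% of all genes were lower and 3.27% higher at an unadjusted p under 0.05, and 47.1% had a lower mean. Of 37 measured assembly factors, 2 were lower at an unadjusted p under 0.05 (NDUFAF3, which helps to assemble complex I, at −0.20, and the copper chaperone COX17 at −0.10) and 1 higher (ATPAF1, an assembly factor of the ATP synthase head, at 0.47), with a median of 0.00. Of 13 genes of the citric acid cycle and pyruvate dehydrogenase, 1 was lower at this threshold (OGDH, the E1 enzyme of 2-oxoglutarate dehydrogenase, at −0.51), and the median was −0.06. Of 12 carriers and energy transfer genes, 11 had a lower mean, 1 of them at an unadjusted p under 0.05 (SLC25A4, an ADP/ATP carrier, at −0.48), and the median was −0.08. SLC25A4 had a mean log2 intensity of 7.77. The brighter ADP/ATP carriers SLC25A5 (11.50) and SLC25A6 (14.04) differed by −0.17 (SE 0.08) and −0.10 (SE 0.08). Of 11 regulators of mitochondrial transcription and biogenesis, 2 were higher at this threshold, GABPB1 (0.24), which activates many respiratory chain genes, and NRF1 (0.63), whose probe set lay below 16 in 6 arrays. Of 7 mitochondrial antioxidant genes, 0 reached the threshold in either direction, and the median was −0.03. The Z-linked assembly factors NDUFAF2 and LYRM7 had the pattern of the Z-linked subunits. They were 0.91 and 0.88 higher in the arrays without W-linked signal and differed between plus lens and control by −0.53 and −0.41, and over the 6 arrays by −0.11 and 0.04.

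Markers of retinal cells were present in all arrays, with mean log2 intensities of 13.0 to 13.3 for 4 genes of Mueller glia, 11.9 to 12.3 for 7 genes of cones and 8.52 to 9.40 for 5 genes of rods, where rhodopsin was not analysed here. Among the 5 rod markers, 3 had a higher and 2 a lower mean in plus lens retinas. Their median difference was 0.11 over all arrays and 0.22 over the 6 arrays with W-linked signal. Of 7 cone markers, 6 had a lower mean in plus lens retinas, with a median of −0.11 over all arrays and −0.02 over the 6 arrays with W-linked signal. The only probe set named GNAT2, the alpha subunit of cone transducin, had 11.84, 11.99, 12.40 and 11.71 against 13.13, 13.40, 13.60 and 13.06 (−1.31, SE 0.18; adjusted p = 0.412 from limma; −1.38 over the 6 arrays), with groups that did not overlap. Whether this 1 probe set follows the RNA of GNAT2 was not tested here. In whole retina, fewer cells of a type and less RNA per cell cannot be told apart. Pigment epithelium markers, 6 of 7 lower and 2 of them (DCT at −1.69 and TYRP1, a Z-linked gene, at −1.51) with an unadjusted p under 0.05, had array means of 3.59 to 3.90 in plus lens and 3.81 to 4.69 in control retinas, with TYR, PMEL and LRAT below 16 in all arrays and RPE65 at 9.21 on average. Their median difference was −0.14 over all arrays and −0.01 over the 6, and RPE65 was 1.12 higher in the 2 arrays without W-linked signal than in the 6 with it. The part of cones or of adhering pigment epithelium in the lower subunit values was not tested. All 5 skeletal muscle markers lay below 16 in all arrays, as did 3 of 5 markers of sclera and choroid and 2 of 3 of erythrocytes, and the haemoglobin gene HBA1 was above 16 in plus lens replicate 1 alone (4.81 on the log2 scale).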

How the data were processed

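Per the labels and the methods, total RNA was labelled by the one-cycle protocol, hybridized to GeneChip Chicken arrays and scanned with Microarray Suite 5.0. The authors computed the deposited values, 1 linear intensity per probe set and array, with GC-RMA in ArrayAssist 4.0, which corrects background by probe sequence and normalizes between arrays, so weak signals are pressed towards a floor. The log2 of these intensities was used with no further scaling. Without the 96 control probe sets of the manufacturer, 38439 of 38535 entered the test. Symbols came from the platform annotation (1 symbol for 27168, several for 177, none for 11094), and 1 matching probe set with several symbols was left out. Chromosomes came from RefSeq (assembly GRCg7b) by gene identifier, which matched 26853 probe sets and 119 of the 120 of the respiratory chain. No coordinates or promoter sequences were analysed here.

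Groups were compared without a block in limma 3.58.1 (lmFit, eBayes; R 4.3.3), with Benjamini-Hochberg adjustment over all probe sets. The call, an adjusted p under 0.06 and 1.5-fold, follows the methods, whose t-test was run as an alternative. For single values the exact permutation test (two-sided) ran over all 70 relabelings of the arrays. W-linked signal is the mean log2 intensity of the 12 of 39 W-linked probe sets whose range over the arrays exceeded 4. Each chick is 1 replicate, and 8 arrays limit the precision. No column of another sample was present. Named were the core subunits, the Z-linked subunits, every probe set with an unadjusted p under 0.05, the smallest p of each complex in each direction and the largest and smallest spread. Further genes (the probe sets that disagree, the range ends, UQCRB and GNAT2) were named after their values were seen. Members, lists and rules were chosen with earlier results of these data known. The steps were tested on simulated data. Array records gave fluidics station, module and scan order only, and the module number equalled the replicate number in both groups.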

Additional observations from a re-analysis of the deposited data

Results flagged for a closer look

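In the 33 probe sets named by rule, 66 groups of 4 arrays were searched with Dixon's ratio at the 95% level. It flags an array whose gap to the nearest other array is too large a share of the range of its group. The level allows about 1 group in 20 for normally distributed values in probe sets chosen without regard to spread. Some of these probe sets were named for large spread or Z linkage, so that rate is no yardstick here. In all, 7 groups were flagged. NDUFS1, the largest core subunit of complex I, had 2 of them at its brightest probe set: plus lens replicate 2 at 9.42 against 11.27 to 11.43 in the other plus lens arrays, and control replicate 4 at 6.96 against 10.30 to 10.79. NDUFS3 stood at 8.44 in plus lens replicate 1, against 6.47 to 6.75 in the others. COX5A stood at 8.41 in plus lens replicate 4, against 7.44 to 7.50. ATP5F1AZ stood at 11.64 in plus lens replicate 3, against 11.38 to 11.40. At dim probe sets, NDUFA7 stood at 6.80 in control replicate 4, against 6.05 to 6.13, and NDUFS4 at 4.02 in control replicate 4, against 3.01 to 3.03, an array that lacks W-linked signal. Control replicate 4 holds 3 of the 7 values, and their cause was not tested.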

How the results depend on the processing

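Under every alternative 0 probe sets of the respiratory chain were called, and the number with an unadjusted p under 0.05 (11) stayed between 8 and 16 when 1 array was left out. It was 22 (18 lower, 4 higher) with array weights in limma and 10 with the methods' t-test. With the replicate number as a block it was 14 (8 lower, 6 higher), with 0 called and a median of −0.01 as without the block. Same-numbered arrays had the same fluidics module number, so this block was also a block by module. Deviations from the group means correlated by −0.01 to 0.11 between same-numbered arrays, and no pairing of the chicks by number was assumed. Over all probe sets the calls were 0 in the main fit, 3 with a term for W-linked signal and 1 each with only probe sets above 16, without plus lens replicate 4 and without control replicate 1. The median of the 120 probe sets, −0.01, was −0.0503 with 1 probe set per gene and lay between −0.03 and −0.00111 with 1 array left out. The number of lower genes, counted after the data were seen, was 47 of 67 and lay between 42 and 52 with 1 array left out. Of 593 alternative values of the 33 named probe sets, 573 kept their sign and 20, in 8 probe sets, did not. Leaving out 1 array gave −0.30 to 0.0557 for COX5A, −0.39 to 0.10 for the dim COX7C probe set, −0.30 to 0.68 for NDUFS3, −0.0523 to 0.0195 for UQCRC1 and −0.0599 to 0.00353 for UQCRC2. Over the 6 arrays with W-linked signal, and equally with a term for it, the dim COX7C probe set differed by 0.37, CYCS by 0.00343, NDUFS4 by 0.0518 and UQCRC1 by 0.0237. With array weights NDUFS3 differed by −0.17 and SDHA by 0.00785. The cause was not tested. Low signal limits NDUFS5, COX7B and ATP5G2, whose probe sets lay below 16 in all arrays.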
